A study of Mus musculus with 19 samples.

Results

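DBA/2 and B6 mice were compared 8 weeks (8 w) after the last injection of CAWS, a mannoprotein and β-glucan fraction from the culture medium of Candida albicans that induces coronary arteritis in mice. The comparison held 4 of the 18 RNA samples of the study, 2 labelled DBA/2_8w and 2 labelled B6_8w, and its members were taken from the sample titles alone. All 4 samples came from male mice that had received CAWS intraperitoneally on consecutive days, so no untreated mice entered, and those of DBA/2 were survivors in a strain in which survival fell. Total RNA of leukocytes was captured from whole blood on a filter, and single-colour Agilent whole-genome arrays measured it, 1 array per sample. The labels call the samples biological replicates without tying them to mice, so p-values cover the spread between these samples only. The labels give neither the age of the mice nor the number of mice behind a sample.

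B6 (C57BL/6) and DBA/2 are inbred strains that carry fixed differences in the sequence and regulation of many genes, some of which show only under certain conditions. Hepatocytes, the main cell type of liver, make albumin, fibrinogen, apolipoproteins and most complement proteins of plasma, and blood leukocytes are not known as a source of these transcripts. Interferon-γ, the type II interferon of T cells and NK cells, acts through Irf1 and other factors on a set of targets that includes the guanylate-binding proteins, the immunity-related GTPases and the chemokines Cxcl9 and Cxcl10.

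Levels are given as log2 of the deposited processed signal relative to the 75th percentile of the same array, and a strain difference is the DBA/2 mean minus the B6 mean, so that negative values are higher in B6 mice. A probe was called past the threshold at an adjusted p below 0.05 (limma, Benjamini-Hochberg over 22939 probes). The 4 arrays had between 38.8% and 51.4% of their spots well above background, the lowest being B6 replicate 2 and the highest B6 replicate 1. Every one of the 19 pan-leukocyte genes (Ptprc, Coro1a, Lcp1 and others) was well above background on all 4 arrays, 4 of them were higher in DBA/2 mice and 5 in B6 mice, and their median difference was -0.08. The 4 arrays lay on 4 slides and no slide held both strains at 8 w, so strain and slide cannot be told apart within this week. Both scan days held both strains. The arrays carry probes designed on 1 reference, so less RNA and a strain variant under the probe cannot be told apart for any single gene.

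At 8 w, 5835 of 22939 probes (25.4%) differed between the strains, 2384 (10.4%) higher in DBA/2 mice and 3451 (15.0%) higher in B6 mice. The median absolute strain difference was 0.383 log2 units, against a median absolute difference between replicates of 0.203 in DBA/2 mice and 0.186 in B6 mice. Among the called probes, 727 were not well above background (dim) in 1 of the strains, 482 of them higher in B6 mice, and 25 were dim in both strains. For such genes the difference is given as a bound ("at least N-fold"), the bright group's mean over the dimmest level that is well above background. The direction of the balance rested on the scaling. Quantile normalization gave 2832 probes higher in DBA/2 mice and 2578 higher in B6 mice, the 75th percentile over all probes gave 2922 and 2709, scaling to the pan-leukocyte genes gave 3284 and 2955, and centring each array on its median gave 2080 and 1650. These settings moved the median of all differences by between 0.09 and 0.14, and none of the 124 genes named by the rule changed direction at 8 w under any of them. The rule picks genes called at 8 w on these same arrays, so their kept direction is no separate check.

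The largest differences were one-sided. At 16-fold or more, 162 called probes were higher in B6 mice and 20 in DBA/2 mice. To mark probes that rise with hepatocyte genes, a set of 345 probes (1.5% of those tested) was drawn. They were at least 4-fold and past the threshold higher in B6 mice at 0 w (right after the last injection) than at 4 w. The week 0 w was picked because hepatocyte genes were known to be high in B6 mice at 0 w and 8 w. Overlap of the set with 8 w is thus not independent of this choice. The contrast leaves out the samples of 8 w, but the filter and the estimate of the spread used all 18 samples. Of this B6 0 w pattern, 286 probes were higher in B6 mice at 8 w, 9 were higher in DBA/2 mice and 50 were not called. Its median difference was -3.04 at 8 w and 0.27 at 4 w, against -0.04 and 0.06 over all probes tested. The rule picks probes that are low in the B6 samples of 4 w, which pushes the 4 w difference toward DBA/2 mice. The 4 w value is therefore not independent of the rule. The pattern held 21.4% of the 1283 probes at least 2-fold higher in B6 mice, 42.6% of the 559 at least 4-fold higher and 72.8% of the 162 at least 16-fold higher. Among probes at least 2-fold higher in DBA/2 mice it held 8 of 793. Outside the pattern, 5540 of 22594 probes (24.5%) were called, 2375 higher in DBA/2 mice and 3165 in B6 mice.

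**Figure D1:**
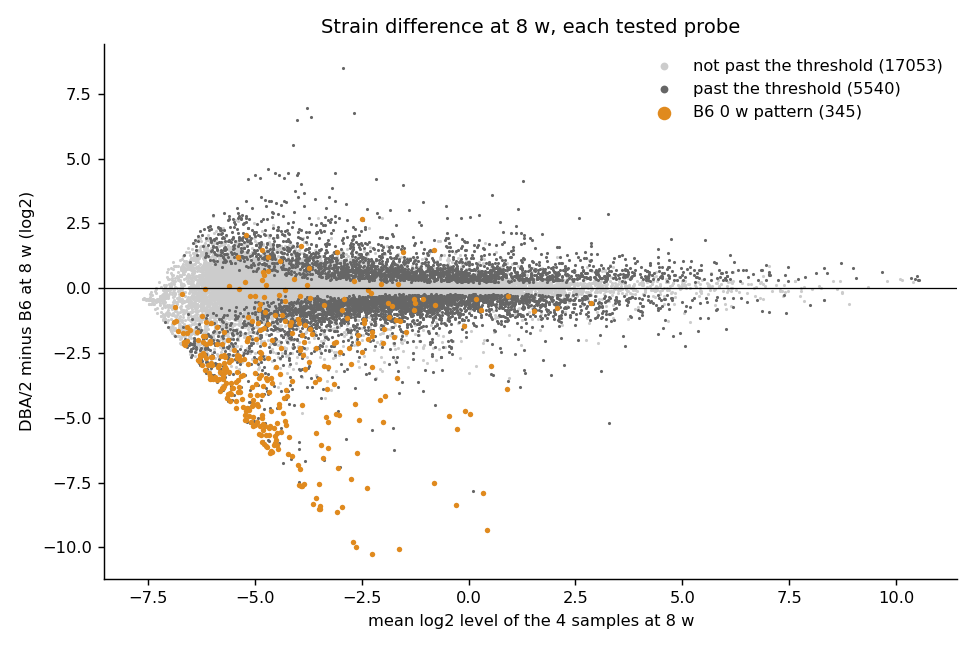
Strain difference at 8 w (y axis, DBA/2 minus B6, log2) against the mean log2 level of the 4 samples (x axis) for each of the tested probes, in light grey where not past the threshold (17053), dark grey where past it (5540) and orange for the 345 probes of the B6 0 w pattern. Most orange points lie below 0 and reach past -10, while dark points outside the pattern spread to both sides.

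Most hepatocyte transcripts tested were higher in B6 mice at 8 w, and many of them were dim in both DBA/2 samples. All 20 plasma protein genes tested were higher in B6 mice, as were 14 of 18 hepatocyte metabolic enzymes and 9 of 14 complement factors of hepatocytes, and none of the 3 lists held a member higher in DBA/2 mice. Alb, serum albumin, stood at 2.95 and 2.79 in B6 mice and at -7.70 and -7.11 in DBA/2 mice. The B6 samples were bright and close to each other, and neither DBA/2 sample was well above background. Alb was at least 327-fold higher in B6 mice (adjusted p = 3.9e-07), Fgg, the fibrinogen γ chain, at least 229-fold (adjusted p = 1.1e-06) and Fabp1, the fatty acid carrier of liver, at least 204-fold (adjusted p = 8.4e-09).

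The promoters of 3 of these genes are shown because they carry GTTAAT, a core motif of the hepatocyte factor HNF1, which is set in capitals. They are cut from RefSeq's GRCm38.p6, a B6 genome, around the match (in either strand), 5′ to 3′ on the strand of the gene, and DBA/2 sequence was not used here.
Alb (chr5:90460798-90460883, plus strand): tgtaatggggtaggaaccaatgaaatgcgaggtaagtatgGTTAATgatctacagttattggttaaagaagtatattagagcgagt
Fga (chr3:83026070-83026155, plus strand): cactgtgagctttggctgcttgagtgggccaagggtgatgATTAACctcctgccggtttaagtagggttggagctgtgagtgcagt
Fabp1 (chr6:71199732-71199817, plus strand): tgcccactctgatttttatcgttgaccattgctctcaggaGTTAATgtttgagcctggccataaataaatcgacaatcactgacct
The match lies 26 bases before the start site in Alb, 37 in Fga (as the reverse ATTAAC) and 101 in Fabp1. GTTAAT or its reverse occurred in 5 of 15 promoters of the plasma protein list that RefSeq's table held (Alb, F2, Fga, Fgb and Gc), in 4 of 14 of the enzyme list (Fabp1, G6pc, Hnf4a and Pck1, of which G6pc and Hnf4a were not called and Pck1 had no probe), and in 7.10% of all 32851 promoters of the same length. A match is a description of the letters and not a bound site.

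Among the other plasma proteins, Rbp4, the retinol carrier, stood at 0.83 and 0.71 in B6 mice and failed to stand well above background in the DBA/2 samples (at least 76.5-fold). Hpx, the heme carrier hemopexin, stood at 1.19 and 1.34 in B6 mice (at least 107-fold), and Apoa2, F2 (prothrombin) and Apoh were at least 62.5-fold, 40.9-fold and 38.9-fold higher there. These genes were thus detected in B6 samples alone at 8 w. In contrast, Fgb, Ahsg, Ambp, Trf, Gc and Plg were well above background on both DBA/2 arrays as well. Ambp, the α1-microglobulin precursor, differed by -5.42, Ahsg, the fetuin of plasma, by -3.01, and Trf, transferrin, by -1.68, each as a log2 difference past the threshold. The list's median difference was -5.74, and -4.96 with the 14 dim members set to their bounds. Its members summed to between 38.6 and 39.4 times the array's 75th percentile in B6 mice at 8 w and to between 1.00 and 1.71 in DBA/2 mice.

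Enzymes of hepatocyte metabolism followed with fewer calls. Uox, urate oxidase, was at least 54.0-fold higher in B6 mice and Cyp2e1, a cytochrome P450, at least 16.1-fold. Cps1, which opens the urea cycle, was at least 9.83-fold higher. The list's median was -4.23, and -2.80 with dim members at their bounds. The 4 enzymes not past the threshold were Tat (-0.88, adjusted p = 0.070), Hnf4a (-0.27), G6pc (0.06) and Cyp7a1, which was not well above background in B6 mice. Of these, Tat, Hnf4a and G6pc were well above background in both strains, and none of the 4 belonged to the B6 0 w pattern.

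Complement genes of hepatocytes split along the same line. Mbl2, a mannose-binding lectin, stood at -0.99 and -1.05 in B6 mice and failed to stand well above background in the DBA/2 samples, at least 22.0-fold lower. Cfi, the factor I protease, was at least 16.5-fold higher in B6 mice, C8g, a chain of the membrane attack complex, at least 7.01-fold and Serping1, the C1 inhibitor, at least 6.43-fold. Hc, complement C5, was counted with the complement genes of leukocytes. DBA/2 mice carry a loss-of-function allele of Hc. It stood at -0.57 and -0.59 in B6 mice and was at least 29.6-fold lower in DBA/2 mice, whereas at 4 w the strains differed by -0.63 (adjusted p = 0.23). The probe that stands for C4bp was dim in both strains.

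**Figure D2:**
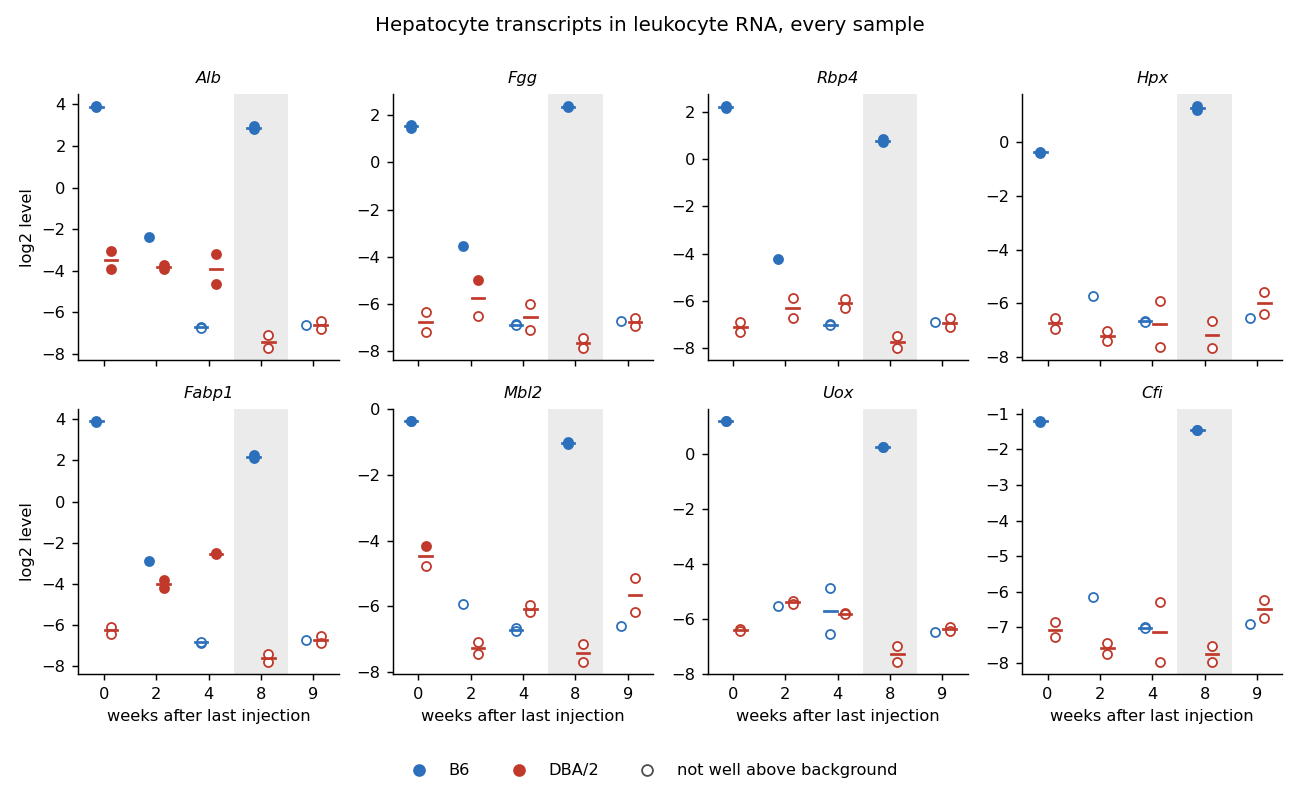
Log2 levels (y axis) of 8 hepatocyte genes in every sample of B6 mice (blue) and DBA/2 mice (red) by weeks after the last injection (x axis), with bars at group means of 2 samples, open circles for spots not well above background, and 8 w shaded. The B6 samples of 8 w and of 0 w are the high points in every panel, and the DBA/2 samples of 8 w are open circles.

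The hepatocyte signal of B6 mice came and went between weeks. Alb stood at 3.90 and 3.87 in B6 mice at 0 w, at -2.37 in the single B6 sample of 2 w, at -6.68 and -6.74 at 4 w and at -6.59 in the single sample of 9 w. In DBA/2 mice it never rose above -3.06 in 10 samples, and at 4 w it was higher in DBA/2 mice (adjusted p = 8.8e-04), as was Fabp1 (adjusted p = 2.6e-07), both being dim in the B6 samples of that week. The summed level of the plasma protein list lay between 48.5 and 49.7 in B6 mice at 0 w, between 1.27 and 1.34 at 4 w and at 0.928 at 9 w. B6 samples of 4 w, 8 w and 9 w (replicate 2 each) shared a slide, and within it Alb stood at -6.74, 2.79 and -6.59.

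Marker genes of other liver cells did not move as a group, with 4 of 9 tested higher in DBA/2 mice, 2 higher in B6 mice and a median difference of -0.16. Clec4f, the lectin of Kupffer cells, was at least 2.47-fold higher in B6 mice and Dcn, the matrix proteoglycan decorin of stellate cells and fibroblasts, at least 3.42-fold. Stab2, a scavenger receptor of sinusoidal endothelium, was 6.24-fold higher in DBA/2 mice (adjusted p = 5.8e-07), was dim in B6 replicate 2, and lay higher in all 10 DBA/2 samples than in all 8 B6 samples of the study. Timd4, a phosphatidylserine receptor of resident macrophages, was 3.19-fold higher in DBA/2 mice and dim in B6 replicate 2, but not past the threshold without DBA/2 replicate 2 (adjusted p = 0.060) or B6 replicate 2 (adjusted p = 0.068). Lyve1, Clec4g and Oit3 were not called. Probes for Krt19, Epcam, Sox9, Lrat and Col1a1, markers of bile ducts and stellate cells, were too dim to be tested.

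Acute-phase transcripts were also among the largest differences. Saa2, a serum amyloid A of the acute phase, stood at 4.00 and 4.03 in B6 mice and at -3.37 and -4.28 in DBA/2 mice, 229-fold apart (adjusted p = 3.0e-07). The difference at 4 w was -0.42 (adjusted p = 0.35). Saa1 was 9.11-fold higher in B6 mice, and both genes share sequence, so the 2 cannot be fully separated. Neither belonged to the B6 0 w pattern, and both were well above background in every sample of the study. Orm2, an α1-acid glycoprotein, stood at -0.99 in both B6 samples and was at least 22.5-fold lower in DBA/2 mice. Mup1, a major urinary protein, stood at 5.02 and 5.16 in B6 mice and at -4.86 and -3.60 in DBA/2 mice (639-fold, adjusted p = 2.5e-07), and Serpina3k was at least 106-fold higher in B6 mice. Both belong to families of near-identical copies.

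Strain differences that were present in every week made up a second class. Of the probes called at 8 w, 2731 (11.9% of those tested, and 46.8% of the 8 w calls) were also called with the same direction at 4 w, where 7365 probes (32.1%) differed, and 572 were called in the opposite direction. They were 37.1% of the 4 w calls. The shared probes split into 1336 higher in DBA/2 mice and 1395 higher in B6 mice, and into 901 and 2232 when arrays were scaled to the pan-leukocyte genes. At 0 w 7495 probes (32.7%) differed, and 2014 kept 1 direction at 0 w, 4 w and 8 w. In 992 of them (4.32% of those tested) all 10 DBA/2 samples lay on 1 side of all 8 B6 samples, 480 higher and 512 lower. The comparisons of 0 w, 4 w and 8 w share no arrays, but they share the estimate of the spread.

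The 10 largest DBA/2-higher differences at 8 w outside the B6 0 w pattern belonged to this class. Of the 10 largest B6-higher ones 8 did, Saa2 and Orm2 being the exceptions. Ifi202b, a p200-family protein that binds nucleic acids and is known to vary between strains, stood at 1.37 and 1.22 in DBA/2 mice at 8 w and failed to stand well above background in either B6 sample. It was at least 82.6-fold higher in DBA/2 mice (adjusted p = 2.4e-07), and over the study DBA/2 samples ranged from -1.25 to 1.37 and B6 samples from -7.73 to -6.60. Mnd1, a factor of meiotic recombination, stood at 0.71 and 0.65 in DBA/2 mice (at least 53.9-fold) and Ttc9 at -0.14 and -0.44 (at least 27.5-fold). H2-Ea, the MHC class II E α chain that B6 mice lack, stood at -0.32 and -0.42 in DBA/2 mice, at least 26.0-fold higher. All 4 genes were well above background in each of the 10 DBA/2 samples.

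Smaller DBA/2-higher differences of this class were those of Mcpt8, a protease of basophils (at least 9.80-fold), Atp9a, a phospholipid flippase (at least 9.37-fold), the kinase Hunk (at least 7.35-fold), Jhy (at least 6.98-fold), Scg5 (at least 4.72-fold) and Apol8 (at least 4.03-fold). None was well above background in a B6 sample of 8 w. In the main setting Apol8 alone of the 10 differed in size between 8 w and 4 w (adjusted p = 0.0026). A further 2 probes without a gene symbol met the same conditions in DBA/2 mice and are not named.

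In B6 mice, Tln2, the cytoskeletal adaptor talin 2, stood at -0.89 and -1.03 and failed to stand well above background in the DBA/2 samples, at least 23.0-fold lower (adjusted p = 6.2e-06). Trim12a, of a tripartite-motif gene cluster, stood at 1.38 in both B6 samples and at -4.56 and -5.20 in DBA/2 mice, 76.5-fold apart (adjusted p = 3.7e-07), and its second probe was called with the same direction. Trim12a was dim in DBA/2 replicate 2. Trim30b was at least 60.7-fold higher in B6 mice, and close paralogs in the cluster can share signal. Slc6a9, a glycine transporter, stood at 5.86 and 5.91 in B6 mice and at 0.55 and 0.81 in DBA/2 mice (36.9-fold, adjusted p = 7.5e-08). Gsta1 and Gsta2, glutathione S-transferases that liver also makes, were at least 38.2-fold and 15.7-fold higher in B6 mice but, unlike the hepatocyte list, were higher in B6 mice at 4 w as well (-6.56 and -4.91 as fitted). Zfp37, Muc2 and Thumpd1 were at least 24.6-fold, 13.7-fold and 12.3-fold higher in B6 mice, and Atcay, dim in DBA/2 replicate 2, 56.9-fold.

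**Figure D3:**
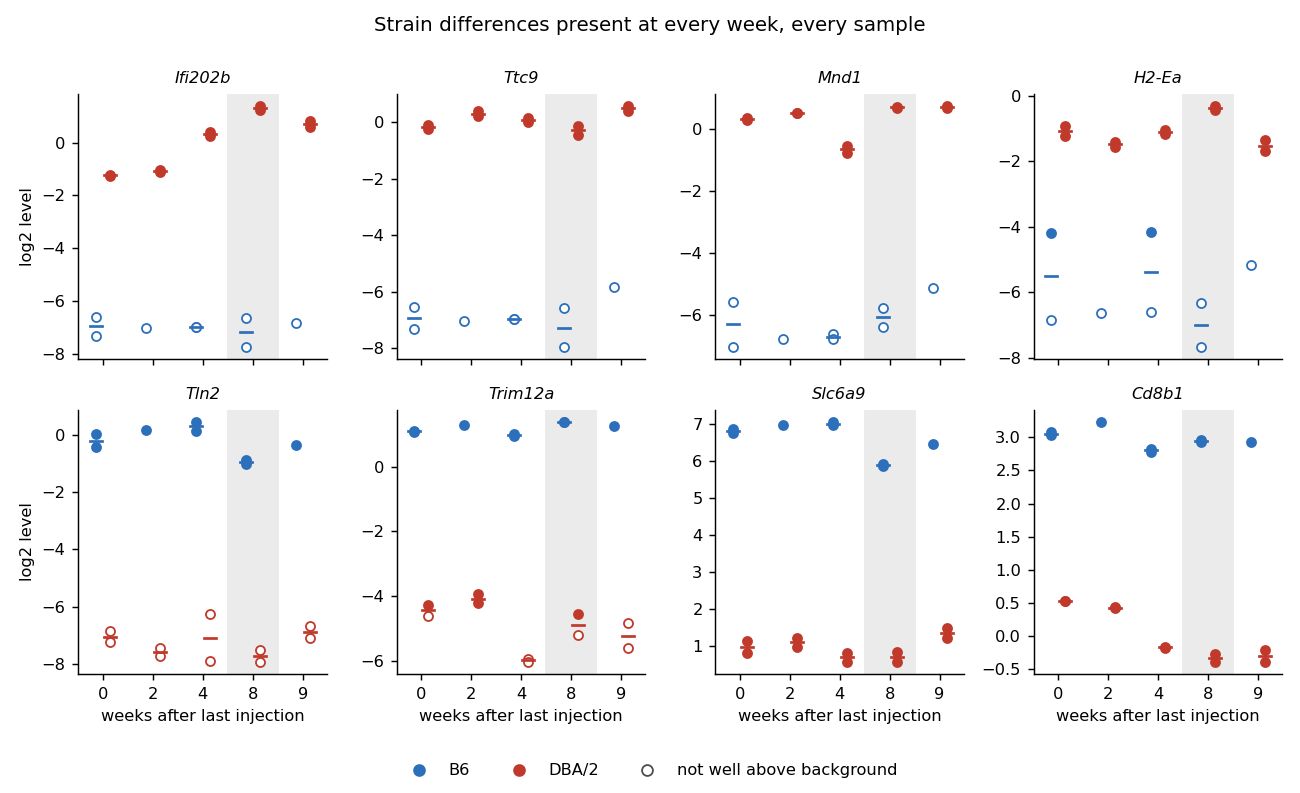
Log2 levels (y axis) of Ifi202b, Ttc9, Mnd1, H2-Ea, Tln2, Trim12a, Slc6a9 and Cd8b1 in every sample of B6 mice (blue) and DBA/2 mice (red) by weeks after the last injection (x axis), open for spots not well above background, with 8 w shaded. In each panel the strains stay apart in all weeks.

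Genes that were apart in all 18 samples lay close together in places (positions of the array's mm8 annotation). On chromosome 6 between 130 and 131 Mb, 10 of 16 tested probes were apart, all higher in B6 mice and all for Klra genes, the Ly49 receptors of NK cells, whose near-identical copies differ in number between strains. On chromosome 1 between 175 and 176 Mb, 10 of 30 were apart, with Ifi202b, Ifi203, Ifi205, Ifi206, Ifi209 and Ifi213 among them. On chromosome 17 between 33 and 34 Mb, which holds MHC class II genes, 12 of 70 were apart, and on chromosome 7 between 104 and 105 Mb 7 of 25, with Trim12a, Trim30b, Trim30d and Trim34a. Over all tested probes 4.32% were apart, from 1.75% on chromosome X to 6.33% on chromosome 17.

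Leukocyte marker lists differed far less than the hepatocyte lists, and in bulk RNA fewer cells of a type and less RNA per cell cannot be told apart. Neutrophil genes were higher in DBA/2 mice, with 9 of 12 called in that direction and a median difference of 0.71. The 1 called in the other was Mmp9 (-0.42), which passed the threshold only with all 4 samples or without DBA/2 replicate 1. With normexp background correction 6 neutrophil genes were called higher in DBA/2 mice and 0 in B6 mice. A fit to the 4 arrays of 8 w alone called 5 and 0. Camp, the antimicrobial peptide cathelicidin of neutrophil granules, stood at 2.31 and 2.26 in DBA/2 mice and at 0.11 and 0.18 in B6 mice, 4.41-fold apart (adjusted p = 2.0e-06). Ngp and Ltf (lactoferrin), of the same granules, were 3.12-fold and 2.67-fold higher, and Mpo, of primary granules, dim in B6 replicate 2, 2.33-fold (adjusted p = 0.054 without DBA/2 replicate 2). The difference of Camp was smaller than at 4 w (3.39, adjusted p = 8.3e-04 for the shift), but under normexp the shift turned to 0.31. The shift of Ltf (-1.32, adjusted p = 0.035) was not past the threshold under any of 5 other scalings or background corrections, and Ngp turned to 0.88 under normexp. Ngp was dim in both B6 samples of 4 w. The list's summed level was between 707 and 787 in DBA/2 mice and between 432 and 434 in B6 mice at 8 w, both the highest of their strain.

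Monocyte genes were higher in DBA/2 mice in 7 of 12 cases and lower in 1, with a median of 0.53. Under normexp 2 were called higher and 0 lower, with a median of 0.45. A fit to the 4 arrays of 8 w alone called 0 in either direction. Itgam (CD11b) was 1.79-fold higher, Ly6c1 1.65-fold, Cd14, the co-receptor of lipopolysaccharide, 1.62-fold and Ccr2, the chemokine receptor of inflammatory monocytes, 1.58-fold. F13a1 was 1.32-fold higher in B6 mice, though not without DBA/2 replicate 2 (adjusted p = 0.065). Macrophage genes of spleen and tissue were higher in DBA/2 mice in 4 of 9 cases and in none lower. Under normexp 1 was called higher, and in the fit to the 4 arrays of 8 w alone 2 were. C1qa, a chain of the C1q starter of the classical complement pathway, stood at -2.35 and -2.43 in DBA/2 mice and at -3.80 and -3.73 in B6 mice (2.60-fold, adjusted p = 0.0055). Slc40a1, the iron exporter ferroportin, and Hmox1, heme oxygenase, were 2.00-fold and 1.56-fold higher, and Spic 2.36-fold (adjusted p = 0.054 without DBA/2 replicate 2).

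Of the T cell genes, 5 of 15 were higher in B6 mice and 2 in DBA/2 mice, with a median of -0.30. Over all probes tested 15.0% were higher in B6 mice and 10.4% in DBA/2 mice. With centring on the array median 2 T cell genes were higher in B6 mice and 1 in DBA/2 mice, with a median of -0.17. Under normexp 1 and 0 were called. Cd8b1, the CD8 β chain, stood at 2.93 and 2.95 in B6 mice and at -0.27 and -0.38 in DBA/2 mice, 9.64-fold apart (adjusted p = 3.2e-08), and was apart in all 18 samples. Its second tested probe was not called. Cd8a was 2.15-fold higher in B6 mice, with 1 of 2 further probes called in that direction, Tcf7 and Il7r, of naive and memory T cells, were 1.55-fold and 1.34-fold higher there, and Cd3g, of the T cell receptor complex, was higher in DBA/2 mice by 0.59 on the log2 scale. Trat1 (0.46 at 8 w) lost its call without 3 of the 4 samples, with adjusted p between 0.084 and 0.20.

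B cell genes were higher in B6 mice in 5 of 11 cases and in DBA/2 mice in 1, with a median of -0.29. Cd72, a surface co-receptor, was 1.57-fold higher in B6 mice. Pax5 (-0.94) and Cr2 (-0.43) lost their calls without any 1 of the 4 samples, and Cd79a (1.32) without DBA/2 replicate 2 (0.55, adjusted p = 0.11) or either B6 sample. Without either B6 sample the count of B6-higher genes was 2, and without either DBA/2 sample 3, and after centring on the array median 0. Plasma cell genes were higher in DBA/2 mice in 3 of 7 cases, led by Jchain, the immunoglobulin joining chain, at -0.62 and -1.05 against -2.35 in both B6 samples (2.85-fold, adjusted p = 3.8e-05). Mzb1 was 1.58-fold higher, and Tnfrsf17 (BCMA) was not well above background in B6 mice (at least 1.04-fold) and lost its call without 3 of the 4 samples (adjusted p 0.079 to 0.13).

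NK cell genes were divided, 3 of 10 higher in each strain. Ncr1 (NKp46), the activating receptor, stood at -1.10 and -1.06 in DBA/2 mice and at -2.97 and -3.12 in B6 mice, 3.90-fold apart (adjusted p = 8.5e-06), with Gzma 1.74-fold and Klrd1 1.32-fold higher. Klrb1c (NK1.1) was 2.72-fold, Klrk1 (NKG2D) 2.26-fold and Gzmb (granzyme B) 1.81-fold higher in B6 mice, and all 3 were apart in the same direction in all 18 samples.

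Platelet genes were higher in B6 mice in 8 of 9 cases, with a median of -0.80. Itgb3, the integrin β chain of the fibrinogen receptor, stood at 6.14 and 6.22 in B6 mice and at 3.99 and 3.92 in DBA/2 mice, 4.67-fold apart (adjusted p = 2.3e-07), while its second tested probe was not called. Gp1ba, a chain of the receptor for von Willebrand factor, Pf4, platelet factor, and Gp9 were 1.91-fold, 1.83-fold and 1.78-fold higher. The reference genes Actb and Gapdh were also higher in B6 mice, 1.84-fold and 1.43-fold.

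Erythroid genes were higher in DBA/2 mice in 7 of 10 cases at 8 w and in B6 mice in 1, with a median of 0.44. At 4 w the list's median was -0.90. Klf1, the erythroid transcription factor, stood at -1.86 and -2.17 in DBA/2 mice and at -4.69 and -6.68 in B6 mice (12.8-fold, adjusted p = 4.8e-04), Ermap was 7.58-fold and Tfrc, the transferrin receptor of dividing precursors, 6.63-fold higher. These 3 genes were apart in all 18 samples, and Klf1 and Ermap were not well above background in B6 replicate 2. Eraf, the α-hemoglobin stabilizing protein, was 2.58-fold higher in DBA/2 mice at 8 w and lower there at 4 w (-1.42, adjusted p = 1.7e-05). With quantile normalization 4 erythroid genes were called higher in DBA/2 mice.

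**Figure D4:**
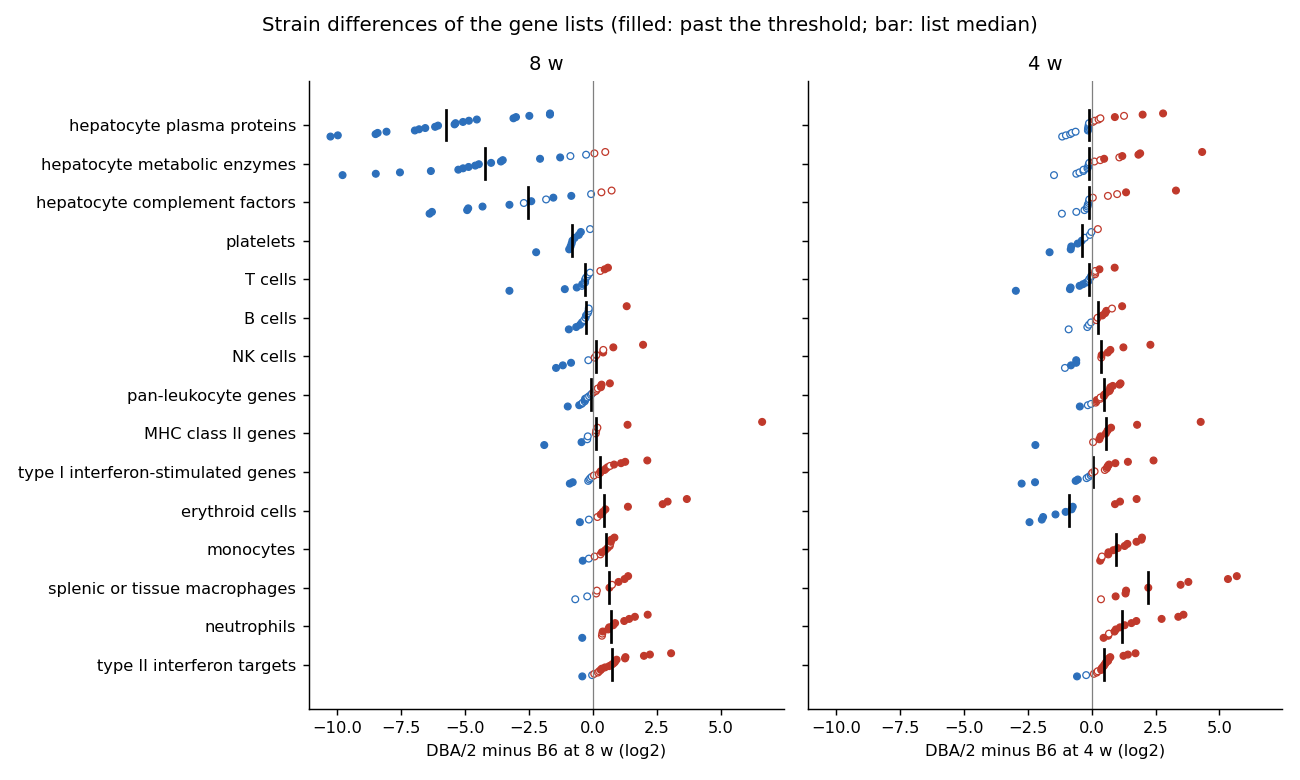
Strain difference (x axis, DBA/2 minus B6, log2) of each tested member of 15 gene lists at 8 w (left) and 4 w (right), filled where past the threshold, red above and blue below 0, with a bar at the list median. The medians of the 3 hepatocyte lists lie between -5.74 and -2.56 at 8 w and near 0 at 4 w, and that of the erythroid list moves from -0.90 at 4 w to 0.44 at 8 w.

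Targets of type II interferon were higher in DBA/2 mice, with 14 of 19 genes called in that direction, 1 in the other and a median difference of 0.73 against -0.04 over all probes tested. Gbp2, a guanylate-binding protein, stood at 2.81 and 2.55 in DBA/2 mice and at -0.28 and -0.48 in B6 mice, 8.34-fold apart (adjusted p = 3.0e-07). The DBA/2 samples of 8 w were the highest of the study for this gene, and the next highest sample stood at 0.87. Cxcl10 and Cxcl9, chemokines that attract activated T cells, were at least 3.40-fold and 2.27-fold higher in DBA/2 mice and not well above background in B6 mice. Cxcl9 was well above background in 1 sample besides those of DBA/2 mice at 8 w, and was tested only because of them. Ifng itself was higher in DBA/2 mice by 0.63 (adjusted p = 0.0039) and Irf1 by 0.87.

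The promoters of 3 of these targets are shown because they carry the core of the interferon-stimulated response element, a pair of GAAA blocks with any 2 bases between them, or its reverse (TTTC blocks), in capitals (RefSeq, GRCm38.p6, 5′ to 3′ on the strand of the gene).
Gbp2 (chr3:142620564-142620653, plus strand): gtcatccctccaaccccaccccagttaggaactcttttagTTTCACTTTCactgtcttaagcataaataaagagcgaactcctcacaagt
Irgm1 (chr11:48871401-48871490, minus strand): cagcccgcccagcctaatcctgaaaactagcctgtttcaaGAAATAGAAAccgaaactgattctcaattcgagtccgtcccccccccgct
Cxcl10 (chr5:92349053-92349139, minus strand): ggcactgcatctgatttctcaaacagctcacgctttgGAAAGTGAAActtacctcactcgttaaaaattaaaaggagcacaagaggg
The marked match ends 49 bases before the start site in Gbp2, 20 in Irgm1 and 203 in Cxcl10. In Irgm1 the last capital block forms a further, overlapping match with the block that follows, which is left in lower case. The element or its reverse occurred in 8 of 16 promoters of type II targets (Gbp3, Igtp, Irgm2, Socs1 and Tgtp1 besides these), in 8 of 15 of type I interferon-stimulated genes and in 3.44% of all 32851 promoters. The γ-activated motif TTCNNNGAA, which is its own reverse, occurred in 7 of 16 promoters of type II targets and in 8.30% of all promoters. Carrying the element did not go with a call in each case, since Igtp, which has it, differed by -0.03.

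Among the other targets, Gbp3 was 2.42-fold higher in DBA/2 mice, at 0.18 and 0.19 against -1.09 in both B6 samples. Irgm1, an immunity-related GTPase, differed by 1.26, Psmb9, of the immunoproteasome, by 0.93, Tgtp1 by 0.85, Irgm2 by 0.80 and Cd274 (PD-L1) by 0.73, all past the threshold. Socs1, the feedback inhibitor, and Icam1 differed by 0.47 and 0.30. Igtp, Iigp1 (0.05), Tap1 (0.20) and Psmb8 (0.24, adjusted p = 0.071) were not called. Ciita, the master regulator of MHC class II, was the member higher in B6 mice (-0.42), and lost its call without DBA/2 replicate 2 (adjusted p = 0.12) or either B6 sample. The list's median was 0.50 at 4 w and -0.40 at 0 w.

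**Figure D5:**
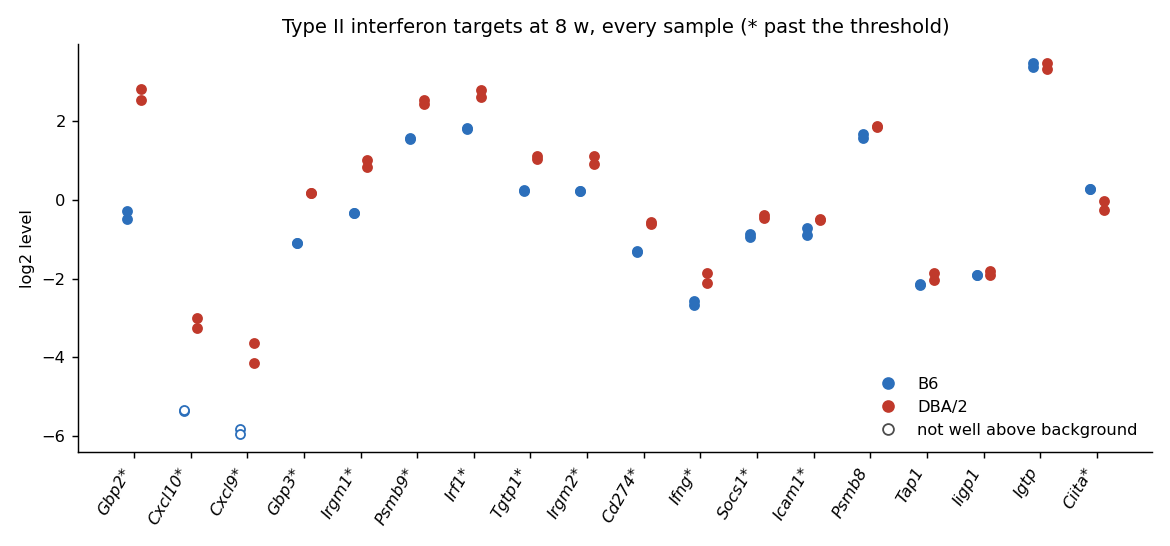
Log2 levels (y axis) of 18 type II interferon targets (x axis, ordered by strain difference) in each of the 4 samples at 8 w, B6 in blue and DBA/2 in red, open where not well above background, with an asterisk at genes past the threshold. The red points lie above the blue ones from Gbp2 to Icam1 and below them for Ciita.

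Of the type I interferon-stimulated genes, 8 of 18 were higher in DBA/2 mice and 2 in B6 mice, with a median of 0.29. The difference between this list and that of type II targets was not tested. Ifit3, an antiviral RNA-binding protein, stood at 0.64 and 0.46 in DBA/2 mice and at -1.42 and -1.73 in B6 mice (4.37-fold, adjusted p = 1.3e-05). Rsad2 (viperin) was 2.40-fold, Rtp4 2.14-fold and Usp18 1.77-fold higher in DBA/2 mice. Irf7, the regulator of type I interferon genes, and Bst2 (tetherin) were 1.87-fold and 1.73-fold higher in B6 mice and apart in that direction in all 18 samples. The 2 interferon lists share their response element and are not independent.

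Inflammatory and antigen-presentation genes were mixed. Il1b stood at 3.64 and 3.59 in DBA/2 mice and at 2.89 and 2.99 in B6 mice, 1.60-fold apart (adjusted p = 3.4e-04), and Cebpb, a transcription factor of myeloid cells, was 1.62-fold higher in DBA/2 mice. Il6 (at least 1.30-fold higher in DBA/2 mice) and Tnf (at least 1.00-fold) were not well above background in B6 mice, entered the test only through the DBA/2 samples of 8 w and 1 of 4 w, and Tnf lost its call without either DBA/2 sample or B6 replicate 2 (adjusted p 0.091 to 0.18). The list counted 6 of 14 genes higher in DBA/2 mice and 3 without B6 replicate 2. In MHC class II, H2-Aa was 2.56-fold higher in DBA/2 mice by 1 probe while another probe gave -1.88, and H2-Ob and H2-Oa, which modulate peptide loading, were 3.75-fold and 1.36-fold higher in B6 mice.

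Complement genes of leukocytes were higher in B6 mice in 7 of 12 cases (4 without DBA/2 replicate 2) and in DBA/2 mice in 3. Fcna, ficolin A, which recognises sugars on microbes, stood at -3.22 and -3.00 in DBA/2 mice and at -4.65 and -4.84 in B6 mice (a log2 difference of 1.63, adjusted p = 0.0032), where it was dim in replicate 2. Cd59a, which blocks the membrane attack complex, was 5.89-fold higher in B6 mice (adjusted p = 2.7e-07) at 2.32 and 2.42 against -0.11 and -0.26, with its second probe called the same way. Cd55, decay-accelerating factor, was 1.54-fold higher in B6 mice, though not without DBA/2 replicate 2 (adjusted p = 0.073). C5ar1, the C5a receptor, was not well above background in B6 mice (at least 1.35-fold), entered the test in the same way as Il6, and lost its call without DBA/2 replicate 2 (adjusted p = 0.23) or either B6 sample. Of the genes known to vary between the strains, Alad, which B6 and DBA/2 mice carry in different copy number, was 2.75-fold higher in DBA/2 mice, Gbp2b was not well above background in B6 mice (at least 1.13-fold, tested only through the DBA/2 samples of 8 w and 1 other, and not called without DBA/2 replicate 1 or B6 replicate 1), and Myo5a, whose dilute allele DBA/2 mice carry, was 3.21-fold higher in B6 mice.

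The strain difference at 8 w was itself tested against that at 4 w, and 4582 probes (20.0%) differed, 1629 (7.1%) shifted toward DBA/2 mice and 2953 (12.9%) toward B6 mice. The test uses the same arrays of 8 w as the strain difference itself. The count was 3037 without DBA/2 replicate 2. With the slide as a fixed block and B6 0 w replicate 2 left out, which leaves 3 residual degrees of freedom, all 4582 probes kept their direction. B6 replicate 1 of 8 w was alone on its slide, so this fit draws nothing from it. The other arrays are those of the main fit, so the kept direction is no separate check. The split turned with the scaling, to 4884 toward DBA/2 mice and 655 toward B6 mice when arrays were scaled to the pan-leukocyte genes, whose own median difference fell from 0.48 at 4 w to -0.08 at 8 w, to 1837 and 1767 with the 75th percentile over all probes, to 1087 and 702 with centring on the array median and to 328 and 80 with normexp background correction. Scaling to the pan-leukocyte genes moved the median shift by 0.54 and normexp by 0.51.

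Hepatocyte lists shifted toward B6 mice in the main setting. All 20 plasma proteins, 13 of 18 enzymes and 8 of 14 complement factors shifted that way, and 17, 12 and 7 of them did with arrays scaled to the pan-leukocyte genes. Under normexp 5, 1 and 1 were called, and the median shifts of the lists were -1.89, -0.23 and 0.20 against -5.28, -4.15 and -2.79 in the main setting. Erythroid genes shifted toward DBA/2 mice in 9 of 10 cases, and in 5 to 10 under the other scalings and normexp. Gbp2 (1.34, adjusted p = 5.9e-04) and Cxcl10 (2.14 as fitted, adjusted p = 0.012) were among 6 of 19 type II interferon targets that shifted toward DBA/2 mice, with 2 shifting toward B6 mice. These counts were 14 and 1 with arrays scaled to the pan-leukocyte genes and 3 and 0 under normexp. Macrophage genes shifted toward B6 mice in 6 of 9 cases, and C1qa, which was dim in both B6 samples of 4 w, was 1 of them (adjusted p = 1.5e-04). Under normexp 1 of 9 was called, the median shift of the list was 0.03 and the shift of C1qa was -0.21 (adjusted p = 0.77).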

How the data were processed

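Leukocyte RNA from blood of male B6 and DBA/2 mice given CAWS was measured on 19 single-colour Agilent arrays of 18 RNA samples in 10 groups (1 B6 sample of 0 w lay on 2 arrays, which were averaged). The authors deposited intensity values from Agilent Feature Extraction 9.5.3.1 (per the labels), with background subtracted and trends within the array removed but no scaling between arrays, and the software's deposited calls of other kinds (well above background, saturated, outlier). Deposited columns of the authors' value table, also intensity, served as an alternative. Controls and outlier spots were dropped, and log2 of the processed signal was set relative to each array's 75th percentile over 11536 probes that every array had well above background. The 22939 of 41174 probes that 2 or more of the 18 samples had well above background were tested with limma 3.58.1 in R 4.3.3 on 10 group means (lmFit, eBayes, 8 residual and 1.37 prior degrees of freedom) at a Benjamini-Hochberg adjusted p of 0.05. Figures came from matplotlib 3.10.9 and tables from pandas 2.3.3 (numpy 2.4.6, Python 3.11.15). 1 tested probe had no value at 8 w once its outlier spots were dropped. Groups came from the sample titles. The number of arrays, with 2 samples a group, limits the precision.

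The members and gene lists were chosen with earlier results of these data known. A gene is represented by its probe of highest mean signal. Named genes are the 10 largest called differences in each direction outside the B6 0 w pattern with groups apart and the higher group well above background, the 5 largest within the pattern, the 10 largest in each direction that were apart in all 18 samples, and up to 4 members of each list in each direction. Probe symbols and mm8 positions are those of the array's annotation, and 631 of the probes called at 8 w had no symbol. Replicate numbers did not pair the strains (correlation of deviations -0.0109). They matched the scan day, since all replicate 1 arrays were scanned on day 1 and all replicate 2 arrays on day 2. Tested on simulated data of the 8 w comparison over 22939 probes, the fit recovered 50 of 100 probes changed 2-fold and 75 of 100 changed 4-fold, with 7 false calls. The simulated noise was independent between samples, held no slide effect, and only 200 probes were changed. These rates therefore need not hold for the real comparison. Some members that count in the lists are not reported here by name.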

Additional observations from a re-analysis of the deposited data

Results flagged for a closer look

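The strain difference at 8 w differed from that at 4 w in 4582 probes (limma, adjusted p under 0.05 for the difference of the differences), and 67 named genes were among them, 63 of which are given here. Of the 67, 60 kept their call with quantile normalization, 59 with the 75th percentile over all probes, 50 with scaling to the pan-leukocyte genes, 45 with centring on the array median and 16 with normexp. Values are log2 strain differences at 8 w minus those at 4 w, DBA/2 minus B6, as fitted. For dim genes they depend on signals near background and are no bounds.

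Hepatocyte and acute-phase genes shifted furthest toward B6 mice. Saa2, Saa1 and Orm2 among them lay outside the B6 0 w pattern. Fabp1 shifted by -14.13, Alb by -13.07, Mup1 by -11.66, Fgg by -10.33, Rbp4 by -9.42, Serpina3k by -9.39 and Hpx by -8.33. Uox shifted by -7.46, Saa2 by -7.42, Mbl2 by -7.03, Cyp2e1 by -6.20, Cfi by -6.18, Orm2 by -4.97, C8g by -4.73, Serping1 by -4.72 and Saa1 by -4.65. Under normexp Serping1 turned to 0.01.

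Macrophage, matrix and complement genes shifted the same way, Dcn by -5.00, Hc by -4.26, C1qa by -3.96, Clec4f by -3.73, Fcna by -3.00, Slc40a1 by -1.21 and Cd59a by -0.68. Clec4f, Dcn and Fcna turned to 0.43, 0.20 and 0.03 under normexp.

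Of the myeloid genes, Ngp shifted by -1.95, Ltf by -1.32, Ccr2 by -1.29, Camp by -1.25, Itgam by -1.13, Mmp9 by -1.07, F13a1 by -1.05 and Il1b by -1.02. Ngp, Ltf, Camp and Itgam turned to 0.88, 0.31, 0.31 and 0.14 under normexp. Of the lymphoid genes, Pax5 shifted by -2.14, Klrb1c by -0.63, Cd72 by -0.55 and Tcf7 by -0.54, while Cd79a shifted by 2.22, Gzma by 0.41 and Il7r by 0.40 toward DBA/2 mice. In the T cell list 1 of 15 genes shifted toward DBA/2 mice and 2 toward B6 mice, and 5 and 0 did with scaling to the pan-leukocyte genes. Over all 22939 probes tested 7.1% shifted toward DBA/2 mice and 12.9% toward B6 mice, and 4884 and 655 probes did under that scaling. The T cell counts thus followed the split of all probes. Further genes with smaller shifts toward B6 mice were Myo5a (-1.13), Ciita (-0.98), Lsp1 (-0.77), Ehd3 (-0.76), Bst2 (-0.75), Gp1ba (-0.66), Itgb3 (-0.58), Fermt3 (-0.52), Laptm5 (-0.52), H2-Oa (-0.50), Inpp5d (-0.47) and Gp9 (-0.45). Scaled to the pan-leukocyte genes, Fermt3, Gp9, H2-Oa, Inpp5d, Laptm5 and Tcf7 were at 0.02, 0.09, 0.04, 0.08, 0.03 and 0.00, and none of these passed the threshold. Bst2, Cd59a, Cd72, Ehd3, Gp1ba, Itgb3, Klrb1c, Lsp1, Ltf and Myo5a also lost their calls under this scaling.

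Toward DBA/2 mice shifted 9 of 10 erythroid genes, 6 of 19 type II interferon targets (2 the other way) and 6 of 18 type I interferon-stimulated genes (3 the other way). Eraf shifted by 2.79, Tfrc by 1.82 and Ermap by 1.81. Gbp2b shifted by 2.64, Cxcl10 by 2.14, Irf7 by 1.84, Rsad2 by 1.81, Gbp2 by 1.34, Gbp3 by 0.74 and Usp18 by 0.71. Other genes that shifted this way were Apol8 (2.57), Stab2 (1.17) and Slc6a9 (1.13).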

How the results depend on the processing

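All 124 named genes kept their direction at 8 w under every setting that tested them, and 49 kept their call under every setting. They were picked as called at 8 w on the same arrays, so the kept direction is no separate check. The filter of 9 samples tested 96 of the 124. With normexp background correction 62 named genes lost their call, and with a fit to the 4 arrays of 8 w alone 53 did. The cause was not tested. Counts of probes at 8 w, at 8 w outside the B6 0 w pattern, shared by 8 w and 4 w, and in the difference of 8 w against 4 w were 5835, 5540, 2731 and 4582. They became 930, 897, 415 and 408 with normexp and 3730, 3459, 1695 and 1789 with centring on the array median. Without the filter on dim probes the shared count was 1725 and the difference of 8 w against 4 w 2209, and the fit to 4 arrays gave 1649 at 8 w. Leaving out 1 of the 4 samples gave 4006 to 4935, 3744 to 4674, 2047 to 2337 and 3037 to 3848, the last being lowest without DBA/2 replicate 2.

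The replicate block, which is also a block for scan day and which the pairing check does not back, gave 7016, 6717, 3392 and 6034. The slide as a random block (correlation 0.395) gave 6070, 5780, 2872 and 6838. As a fixed block with B6 0 w replicate 2 left out as well, 2 choices made together after seeing the data, it gave 5425 for the difference of 8 w against 4 w, and leaving out the B6 samples of 0 w, also chosen after seeing the data, gave 5548 at 8 w. Quantile normalization gave 5410 at 8 w, the authors' deposited values 5632, outlier spots kept 5636 and a filter of 9 samples 5682.

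Outside the pattern, calls split into 2375 higher in DBA/2 mice and 3165 higher in B6 mice, and into 2824 and 2308 with quantile normalization, 2073 and 1386 with the array median, 2916 and 2443 with the 75th percentile over all probes, and 3278 and 2695 with the pan-leukocyte genes. The difference of 8 w against 4 w split into 1007 and 1202 without the filter. In the pan-leukocyte list, Hcls1 lost its call without B6 replicate 1 (0.28), Itgb2 without DBA/2 replicate 2 (-0.37) or B6 replicate 2 (-0.44), and Lsp1, Cd52 and Inpp5d without any 1 sample. With normexp the plasma protein list kept 13 calls, the enzymes 5, hepatocyte complement 2 and type II interferon targets 7, and with the array median platelets kept 5 and T cells 2. The median of the other liver cell list turned to 0.28 with normexp and 0.38 without DBA/2 replicate 1.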
